A study of Homo sapiens with 40 samples.

Results

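RNA carried on polyribosomes was set against total RNA in BEAS-2B cells that the labels call knockdown and that had received IL-13. BEAS-2B is an immortalised line of human bronchial epithelium, and the knockdown line carried a constitutive short hairpin against IGF2BP3. The cells were held overnight in medium with 2% serum, given IL-13 at 100 ng/ml, and collected after 24 h. Of the 40 libraries of the study, 10 belonged to these cells: 5 of total RNA, called input, and 5 of the polysome fraction. The other libraries came from the control hairpin line with and without IL-13, and from the knockdown line without IL-13. All 8 groups share the line, the starvation and poly(A) selection of the RNA, and there was 1 cell line per hairpin. The labels do not say which gradient fractions were pooled as polysome, nor whether the 5 libraries of a group came from separate cultures. The p-values therefore measure the spread between libraries within groups. For the main gene tests that spread was estimated over all 40 libraries.

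A polysome is an mRNA with several ribosomes on it, and ribosomes in turn translate the coding sequence from its start to its stop. In a sucrose gradient an mRNA with many ribosomes moves further than one with few, so the polysome share of an mRNA is read as its engagement in translation. Frac-seq sequences total and polysome RNA side by side. IGF2BP3 is an oncofetal protein that binds mRNAs in the cytoplasm and is known for prolonging their life and shaping their translation. IL-13 is the type 2 cytokine of asthma, which signals in airway epithelium through IL4R and IL13RA1, the JAK kinases and STAT6. CPM, the counts of a gene scaled to a common library total, are shares of a library, so a rise of some mRNAs lowers the share of others. In such bulk samples fewer cells with an mRNA and less of it per cell cannot be told apart. CPM are not divided by transcript length and do not rank genes against each other.

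The label was checked on IGF2BP3 itself. With IL-13, input RNA of the knockdown line held 25.8 ± 6.29 CPM of IGF2BP3 (SD, n = 5) and input RNA of the control line 35.4 ± 6.72 CPM (SD, n = 5), a log2 difference of -0.45 (two-sided exact permutation test of log2(CPM + 1), p = 0.0476, where 252 arrangements allow 0.00794). A sign-flip test within replicate numbers gave an exact p of 0.0625, the smallest that 5 pairs allow. The exact p stayed under 0.05 in the fits without knockdown replicate 3 or without control replicate 4 or 5, and rose to between 0.0794 and 0.103 without any other of the 10 libraries. In the polysome fraction the lines held 9.15 and 10.6 CPM (log2 difference -0.28, exact p = 0.556), and without polysome replicate 5 of the knockdown line the difference was 0.05 in the other direction. For polysome RNA the knockdown rests on the labels. Of 16 bronchial epithelial markers, 6 keratins (KRT7, KRT8, KRT15, KRT17, KRT18 and KRT19) reached a mean of 1 CPM in input. EPCAM, CDH1, KRT5 and TP63 had means below it, with CDH1 at 2.44 CPM in its highest library, and SCGB1A1 and MUC5B were at 0. Mesenchymal markers reached that mean for 14 of 17, immune markers for 2 of 15 (CD14 and CD68, with PTPRC and CD3D at 0) and endothelial markers for 1 of 7. The summed markers were lower in polysome RNA for both the bronchial list (3338 against 1931 CPM) and the mesenchymal list (3559 against 1523 CPM). A few genes made up much of each sum. KRT8 went from 1758 to 527 CPM and KRT17 from 497 to 343 CPM. KRT7 (157 and 166 CPM), KRT18 (861 and 835 CPM) and KRT19 (62.5 and 58.9 CPM) moved less. VIM went from 1963 to 825 CPM, and THY1 was among those that went the other way, from 296 to 444 CPM. The part of these lists in the results below was not tested.

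Input libraries held between 14044352 and 33410570 counts. Polysome libraries 1 to 4 held between 25016505 and 33763265, and polysome library 5 held 2302952. In that library a floor of 3 counts lies at 1.30 CPM, which covers counting error only, since the reads carry no molecular identifiers. It listed 18 genes at 0 that held at least 20 CPM in each of the other polysome libraries, against at most 1 such gene in any of the other 9 libraries and 0 to 13 in the 30 libraries of other groups. Several results that rest on it are given with and without it. The spread between libraries was wider in the polysome fraction, with a biological coefficient of variation of 0.482 against 0.279 in input. That spread was estimated only with library 5 included, and the part of this library in it was not tested.

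Of 16735 genes tested, 6582 (39.3%) differed between polysome and input RNA at an adjusted p under 0.05 (edgeR's quasi-likelihood test with Benjamini-Hochberg adjustment). The polysome fraction held more of 2677 genes (16.0%) and less of 3905 (23.3%). Strong falls were far more frequent than strong rises among called genes, with 1078 at least 4-fold lower and 44 at least 4-fold higher. The libraries of the fractions did not overlap for 5666 genes (33.9%), of which 2065 (12.3%) lay above and 3601 (21.5%) below input. The median gene changed by -0.23 on the log2 scale, and this centre moved with the scaling, to -0.15 with DESeq2 size factors, -0.07 with an offset for transcript length and -0.03 when only the 10 libraries were fitted. The share of higher genes among all calls moved with it, from 40.7% to 50.4% with only the 10 libraries and 50.8% without the 3 libraries of the study under 5000000 counts. Leaving out polysome library 5 gave 6321 calls, of which 41.2% were higher.

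**Figure D1:**
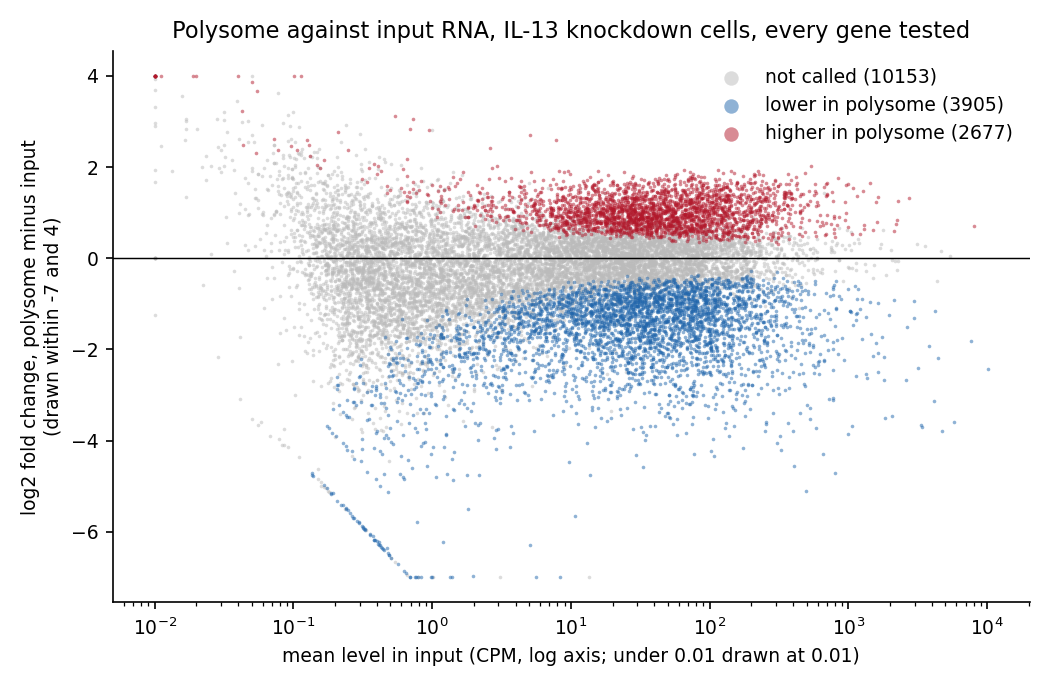
Mean level of each gene in input (CPM, log axis) against its log2 fold change from input to polysome RNA, 1 point per gene tested, with genes called higher in red and lower in blue. Red points stay within about 4-fold of the zero line over most levels, while blue points reach far below it. The diagonal streak at lower left is formed by genes with 0 counts in every polysome library, whose fitted folds depend on a prior count.

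Among coding genes with at least 10 CPM, the 8 largest rises lay between 1.91 and 2.03 on the log2 scale. PRDX1, a peroxiredoxin that reduces peroxides, measured 534, 575, 422, 503 and 631 CPM in input and 1710, 3310, 2170, 1930 and 1740 CPM in polysome RNA. Every polysome library stood well above every input library, a 4.07-fold rise (log2 2.03, SE 0.25, adjusted p = 2.03e-08). SKP1, the adaptor of SCF ubiquitin ligases, went from between 108 and 117 CPM to between 376 and 482 CPM (log2 1.92, SE 0.17), and SSBP1, the single-strand DNA-binding protein of mitochondria, from 49.9 to 74.1 CPM up to between 177 and 309 CPM (log2 1.93, SE 0.18). The same rule gave SAP30 of the Sin3 deacetylase complex (1.92), GEMIN2 of the SMN complex (1.91), the splicing factor SRSF3 (1.91) and the proteasome subunit PSMA2 (1.91). PGAM4 also met it (1.98), but its sequence is close to that of PGAM1 and the 2 cannot be told apart with certainty.

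The largest falls belonged to very large proteins. PRKDC, the catalytic subunit of DNA-dependent protein kinase, measured 427, 500, 609, 576 and 357 CPM in input and 22.6, 10.3, 17.5, 12.5 and 6.07 CPM in polysome RNA. The fractions lay far apart, with the lowest input library above the highest polysome library by more than an order of magnitude (34.6-fold lower, log2 -5.11, SE 0.38, adjusted p = 3.32e-13). PRPF8, the core protein of the spliceosome, was at 749, 880, 770, 786 and 825 CPM in input and 27.3, 34.4, 15.4, 27.6 and 52.9 CPM in polysome RNA. Polysome library 5 was here the highest of its group and still far under input (26-fold lower, log2 -4.70, SE 0.32, adjusted p = 5.89e-14). The ubiquitin ligases HUWE1 (log2 -4.55) and HERC2 (-4.35), the ribosome assembly ATPase MDN1 (-4.57), the chromatin remodeller CHD7, NBAS and AHNAK2 (-4.32) completed the 8. CHD7 measured between 5.71 and 17.6 CPM in input and 0.225, 0, 0.596, 0 and 0 CPM in polysome RNA, and NBAS was at 0 in 4 of the 5 polysome libraries. The fitted values of these 2 genes (-5.66 and -4.76) depend on the prior count, and so does their place among the 8. All 8 have coding sequences of 7005 nucleotides or longer in the annotation, whereas those of the 8 largest rises span 444 to 840.

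Among the coding genes that took the most input counts, ACTB, PPIA, HLA-B, FSTL1 and GNAS were the called genes higher in polysome RNA. The call of HLA-B (1.24, adjusted p = 0.0219) was lost without input library 1, 2 or 4 and without polysome library 2 or 5. Cyclophilin A, encoded by PPIA, rose from between 2230 and 2950 CPM to between 6000 and 7490 CPM (log2 1.33, SE 0.16, adjusted p = 2.85e-08). Beta-actin, ACTB, measured 9770, 8850, 5560, 7370 and 8290 CPM in input and 10200, 17200, 11400, 12700 and 13200 CPM in polysome RNA. Its fractions came close without overlapping (log2 0.70, SE 0.21, adjusted p = 0.0071). The most counted genes that fell were the mitochondrial MT-CO1, MT-ND4 and MT-CO3, the elongation factor EEF1A1 and the tubulin TUBB. EEF1A1, which brings aminoacyl-tRNA to the ribosome, was at 7600, 7970, 7080, 7700 and 7540 CPM in input and 1610, 2980, 1670, 1810 and 2650 CPM in polysome RNA. No library of one fraction came near the other (3.53-fold lower, log2 -1.82, SE 0.23, adjusted p = 4.11e-08). PPIA, ACTB, EEF1A1 and the ribosomal protein genes have near-identical pseudogenes, and HLA-B has close paralogs, so reads may be split between copies and these values are uncertain to that extent.

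**Figure D2:**
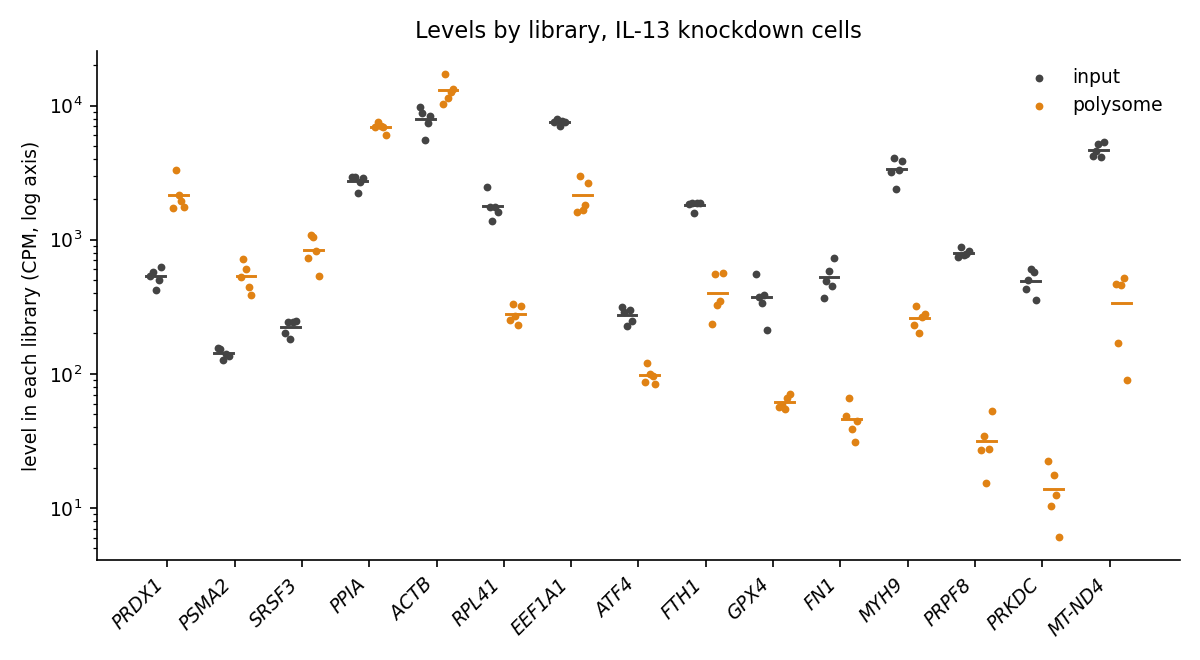
Level of 15 genes in each library (CPM, log axis), input in dark grey and polysome in orange, with a bar at the mean of the 5 libraries of a fraction. For every gene drawn the input and polysome points do not overlap, from PRDX1 and PSMA2, higher in polysome RNA, to PRKDC and MT-ND4, lower in it.

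The change followed coding length. The 13428 nuclear coding genes with a coding length fell into 12 classes, and the median log2 change climbed and then sank along them. It was -0.95 up to 300 nucleotides (314 genes, 9 called higher and 173 lower), -0.35 from 301 to 450 and 0.11 from 451 to 600. It peaked at 0.56 from 601 to 900 nucleotides, where 797 of 1900 genes (41.9%) were higher and 202 (10.6%) lower. From 901 to 1200 it was 0.51, from 1201 to 1500 it was 0.20, and from 1501 to 2000 it was -0.14. Beyond that it sank through -0.58, -1.09 and -1.60 to -2.15 from 6001 to 9000 nucleotides, where 187 of 231 genes (81.0%) were lower and 0 higher. Over 9000 nucleotides the median was -2.58, with 84 of 104 genes lower and 0 higher.

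Each polysome library showed the same shape when set against the mean of input. Between 601 and 1200 nucleotides the median of the 3865 genes lay between 0.33 and 0.65 over the 5 libraries, and over 6000 nucleotides that of 335 genes lay between -3.16 and -2.03. In the latter class 261 genes had every polysome library under every input library, and none the opposite. Library 5 was the lowest of the 5 in each of the 12 classes. Without library 5 the fitted medians were 0.53 and -2.27, against 0.53 and -2.28 with it. The count of genes over 3000 nucleotides that were higher is small and moved more, from 12 of 1813 to 7 without polysome library 2.

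**Figure D3:**
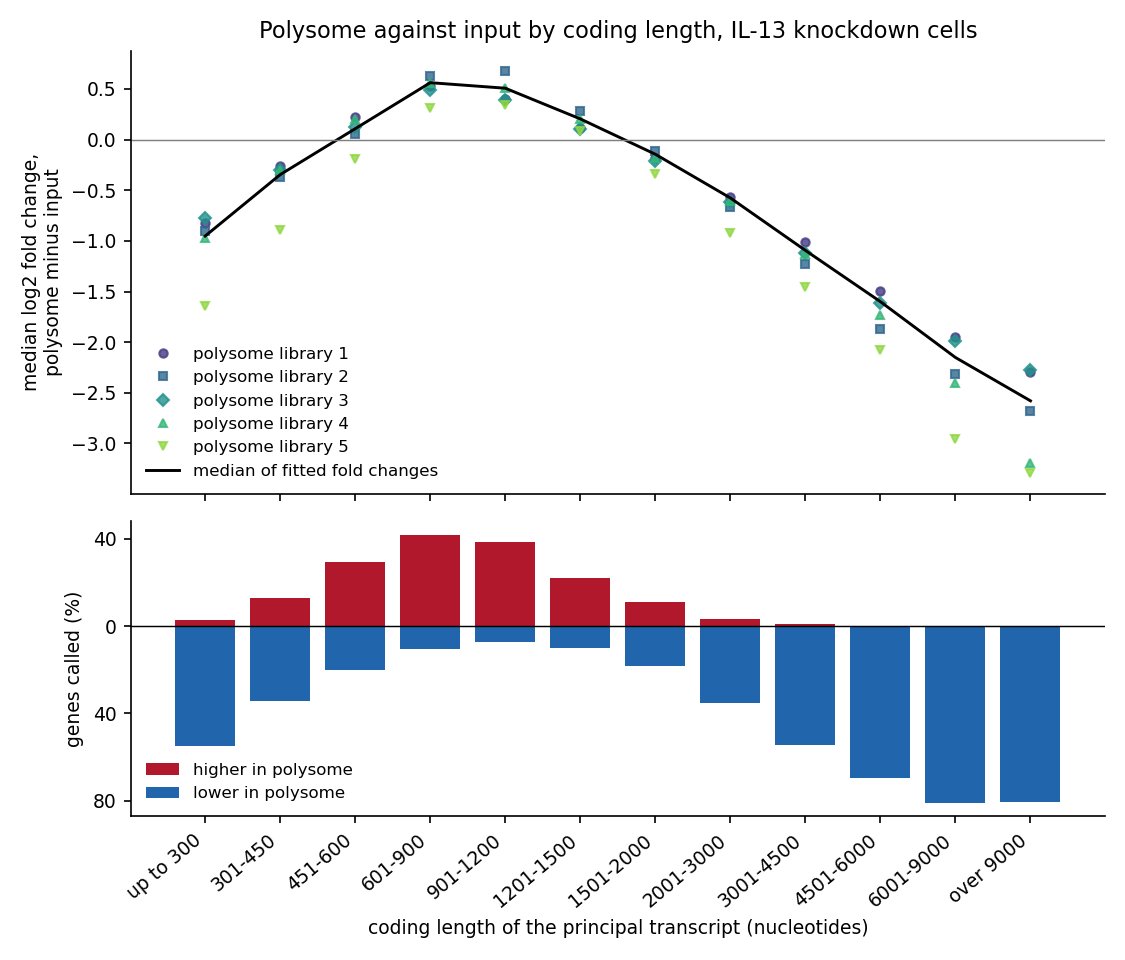
Median log2 fold change from input to polysome RNA in 12 classes of coding length (upper panel, 1 marker per polysome library against the mean of input, and a line for the fitted fold changes) and the percentage of genes called higher and lower in each class (lower panel). The line peaks at 0.56 from 601 to 900 nucleotides and reaches -2.58 over 9000.

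The untranslated regions separated genes far less. When coding length was split into 6 classes and 3′ UTR length into 5, the medians of the 5 UTR classes spanned only 0.13 to 0.43 on the log2 scale inside a coding class, whereas the 6 coding classes spanned 2.31 to 2.81 inside a UTR class. From 901 to 1500 coding nucleotides the median sank step by step with the 3′ UTR, from 0.50 for UTRs up to 300 nucleotides to 0.15 for those over 4000. No such order appeared over 6000 coding nucleotides, where genes with the longest UTRs had the least negative median. Classes of 5′ UTR length gave medians from 0.26 to 0.55 in the class of 901 to 1500 coding nucleotides and from -2.58 to -2.05 over 6000. Noncoding RNAs showed no such slope: their medians were between -0.79 and -0.62 in 5 classes of transcript length, from up to 500 nucleotides to over 4000.

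**Figure D4:**
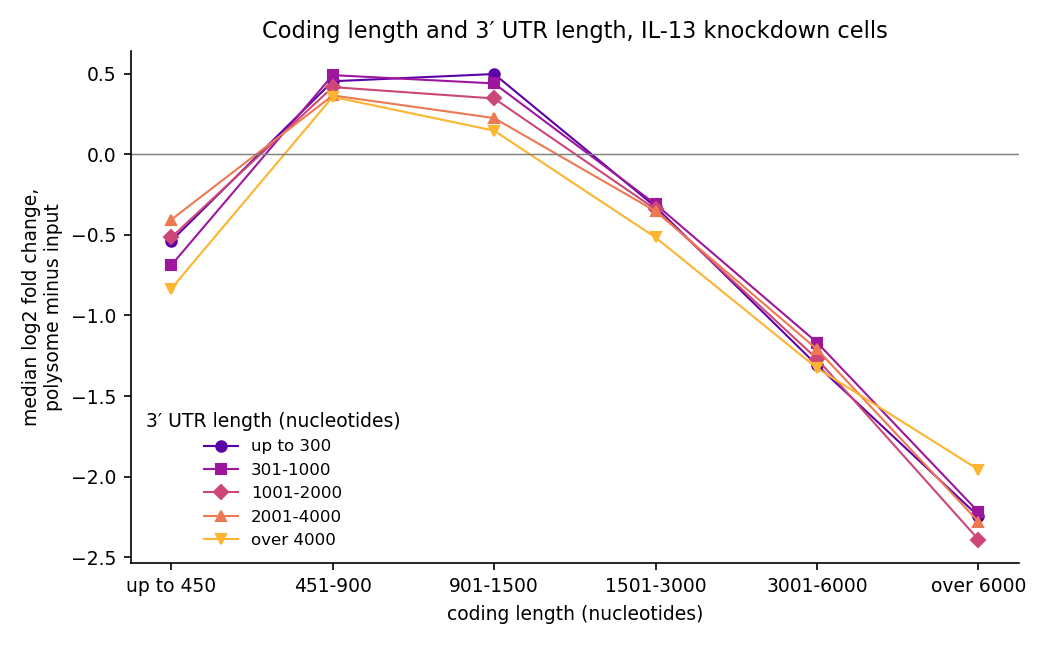
Median log2 fold change from input to polysome RNA for genes grouped by coding length (x axis, nucleotides), 1 line per class of 3′ UTR length. The 5 lines run close together, within 0.43 of each other at every coding length, and share the drop from 451-900 to over 6000 nucleotides.

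Noncoding RNAs, which ribosomes do not translate into long proteins, had medians below the -0.23 of all genes, and most were not called. Long intergenic noncoding RNAs had a median of -0.63, with 10 of 660 higher and 101 lower, and antisense RNAs one of -0.64, with 15 of 793 higher and 122 lower. The shares called lower, 15.3% and 15.4%, were under the 23.3% of all genes, and the shares called higher, 1.52% and 1.89%, under the 16.0%. Their median input levels were 0.598 and 0.629 CPM. Antisense genes share loci with other genes, and the strand setting of the counting is not given in the sources used here. Processed pseudogenes, which are near copies of coding genes, had a median of -0.22.

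The nuclear RNAs MALAT1 and NEAT1, of nuclear speckles and paraspeckles, were both lower. MALAT1 measured 55.9, 50.3, 54, 55.5 and 47.4 CPM in input and 25.9, 10.5, 25.2, 9.66 and 8.67 CPM in polysome RNA. NEAT1 measured 53.5, 57.9, 134, 92.2 and 70.3 CPM in input and 21, 13.1, 23.1, 28.4 and 0.433 CPM in polysome RNA. Neither overlapped between fractions (log2 -1.69, SE 0.52 and adjusted p = 0.00906 for MALAT1, -2.19, SE 0.40 and 2.54e-05 for NEAT1). They belong to a list of 13 long noncoding RNAs drawn up as nuclear. Where its members lie in these cells was not measured, and not all of them need be nuclear. Of the 13, 7 were lower and 0 higher. OIP5-AS1 (-2.52) and NORAD (-1.51), a decoy of PUMILIO proteins, were among the 7. MEG3 was another, at 0 in all polysome libraries. Its input mean of 0.193 CPM lies under what 3 counts per library are worth in the polysome group (0.343 CPM), so no fold is given, and the median of the list was -1.51 as fitted and -0.88 with MEG3 set to no change.

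Host genes of small nucleolar RNAs, spliced RNAs that carry no long reading frame, were lower for 11 of 17 and higher for 0, with a median of -1.87. GAS5 fell from between 49.9 and 60.7 CPM to between 7.92 and 14.7 CPM (log2 -2.42, SE 0.26, adjusted p = 1.66e-09), and SNHG6 by 2.47. ZFAS1 (-2.91) and SNHG29 (-3.51) were also lower.

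The 13 mRNAs encoded in mitochondrial DNA are translated by ribosomes inside the organelle, and 12 were lower in polysome RNA with a list median of -3.23. Together they took between 28890 and 50050 CPM of input libraries and between 1957 and 8184 CPM of polysome libraries. MT-ND4, a subunit of complex I, measured 4180, 4600, 5200, 4140 and 5370 CPM in input and 468, 169, 458, 515 and 90.1 CPM in polysome RNA. Libraries 2 and 5 of the polysome fraction held the least, and no library overlapped (13.8-fold lower, log2 -3.78, SE 0.48, adjusted p = 4.16e-08). MT-CO1 of complex IV fell by 2.43 (SE 0.42). MT-ND6, which is the 1 mRNA of the set on the other DNA strand, was too low and too variable to place (0.06, SE 1.03, adjusted p = 0.974). MT-ND4L shares reads with MT-ND4 and is not counted as separate evidence. Without polysome library 5 the median was -2.99, again with 12 lower.

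Ribosomal proteins and elongation factors are encoded by mRNAs that begin with a run of pyrimidines, the TOP motif, through which mTOR signalling and LARP1 control their translation. Of 79 genes for cytosolic ribosomal proteins, 40 were lower, 5 higher and 34 not called, with a median of -0.60. Their coding sequences are short (median 453 nucleotides), yet 67 of the 79 lay below the median of their own length class and 12 above it, by -0.52 at the median gene. The summed level of the list was between 55170 and 80560 CPM in input and between 45920 and 57760 CPM in polysome RNA, ranges that overlap. RPL41, the shortest, measured 2490, 1760, 1380, 1740 and 1600 CPM in input and 253, 334, 268, 231 and 322 CPM in polysome RNA, with a wide gap between the fractions (log2 -2.67, SE 0.24, adjusted p = 2.56e-11). At the other end RPL24 measured 690, 649, 527, 652 and 679 CPM in input and 1120, 1240, 1290, 973 and 900 CPM in polysome RNA, all of the latter above the former (log2 0.79, SE 0.15, adjusted p = 4.88e-05). The count of higher genes was 11 without the 3 libraries under 5000000 counts and 3 without input library 3 or 5 or polysome library 2 or 3, and 36 were lower in the first of these fits.

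Sequences around the RefSeq start (assembly GRCh38.p14, 10 bases before it and 20 from it, on the strand of the gene) are shown for genes at both ends of this range, with a pyrimidine run in capitals. A run was counted where at least 8 bases of C or T in a row, the first a C, began within 5 bases of the annotated start, and only the transcribed strand was read. RPS12 (log2 -2.44) and RPL39 (-2.39) were picked after their values were seen, as the next lowest with a run. PSMA2, a proteasome gene described below, is shown as a gene with no such run.
RPL41: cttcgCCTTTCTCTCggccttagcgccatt
RPS12: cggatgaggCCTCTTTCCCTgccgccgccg
RPL39: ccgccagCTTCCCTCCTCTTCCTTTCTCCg
RPL24: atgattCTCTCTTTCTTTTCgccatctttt
BTF3: cttccggCCTCCCTTTagctgccatcttgc
PSMA2: gctgtgctttggctcttcgggtaaagatgg
They lie at chr12:56116623-56116652 (RPL41, plus strand), chr6:132814559-132814588 (RPS12, plus), chrX:119791611-119791640 (RPL39, minus), chr3:101686699-101686728 (RPL24, minus), chr5:73498432-73498461 (BTF3, plus) and chr7:42932155-42932184 (PSMA2, minus). The window of each covers the end of the promoter and the first bases of the 5′ UTR.

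The runs of RPL24 and BTF3 are as clear as those of RPL41 and RPS12, although the former 2 genes were higher in polysome RNA and the latter 2 lower. Such a run was found for 41 of 63 ribosomal protein genes with a promoter in the table (65.1%), for 681 of 10735 coding genes tested (6.34%) and for 1464 of all 27305 promoters (5.36%). Ribosomal protein genes with a run had a median of -0.72 (22 lower, 1 higher) and those without one -0.12. Relative to their length classes these medians were -0.54 and -0.29. In the list of other TOP mRNAs described next the order was the opposite, with -0.08 for the 6 of 14 that had a run and -1.25 for the rest. Relative to length class those medians were -0.59 and -1.24, so both sets lay below genes of the same length. Over all coding genes tested the medians with and without a run were -0.19 and -0.13. The presence of these letters is a description of the window and not a test of a site.

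Of 20 other mRNAs listed as TOP mRNAs, 9 were lower and 2 higher, with a median of -0.51 and 16 of 20 below their length class. The count of higher genes was 1 without input library 2, 3 or 5 and without polysome library 2 or 4. The elongation factor EEF2 fell from between 3080 and 4460 CPM to between 784 and 1220 CPM (log2 -1.93, SE 0.17, adjusted p = 1.2e-11). PABPC1, which coats poly(A) tails, measured 1170, 1530, 1360, 1390 and 1370 CPM in input and 345, 151, 309, 181 and 111 CPM in polysome RNA, the fractions lying far apart (log2 -2.63, SE 0.33, adjusted p = 2.7e-08). TPT1 fell by 0.98. BTF3, a subunit of the nascent-polypeptide complex, went the other way, from between 389 and 485 CPM to between 748 and 1240 CPM (log2 1.17, SE 0.14, adjusted p = 1.32e-08). The genes of initiation factors, which load the ribosome onto mRNA, had a median of 0.34. Of 33, 14 were higher (42.4%, against 16.0% of all genes) and 8 lower (24.2%, near the 23.3% of all genes). EIF4H, a helper of the EIF4A helicase, rose by 1.61 (SE 0.12), and the long scaffold gene EIF4G3 fell by 2.96 (SE 0.30).

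Most proteasome subunits rose together. The proteasome is the barrel-shaped protease that degrades ubiquitinated proteins, and 24 of its 31 genes were higher and 1 lower, with a median of 1.38. The 31 genes together took between 4469 and 6295 CPM in input and between 11180 and 16830 CPM in polysome RNA, and 29 of them lay above the median of their length class. PSMA2, an alpha subunit of the core, measured 157, 154, 127, 141 and 135 CPM in input and 530, 720, 606, 443 and 384 CPM in polysome RNA. Its lowest polysome library stood far above its highest input library (log2 1.91, SE 0.22, adjusted p = 5.14e-09). The 1 lower gene was among the longest. PSMD1, a scaffold of the regulatory particle, measured 106, 128, 103, 110 and 104 CPM in input and 32.2, 23.1, 36.8, 23.7 and 0 CPM in polysome RNA, all below input (log2 -2.20, SE 0.54, adjusted p = 0.00111), and PSMD2 was not called (-0.33, adjusted p = 0.278). Without polysome library 5, 26 were higher and 1 lower.

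Genes for mitochondrial ribosomal proteins, made in the cytosol and imported, were higher for 41 of 76 and lower for 9, with a median of 0.66 against -0.60 for the cytosolic set. MRPL15 rose by 1.90 (SE 0.30, adjusted p = 3.12e-06) and MRPL33, whose coding sequence has 195 nucleotides, fell by 1.48 (SE 0.22). The count of lower genes was 4 without the 3 libraries under 5000000 counts. Nuclear genes for the respiratory chain and ATP synthase split evenly, 26 higher and 24 lower of 76, with a median of -0.04 that changed sign between settings. NDUFV1 of complex I rose by 1.56 (SE 0.21), whereas UQCR11, a complex III subunit with a coding sequence of 168 nucleotides, fell by 2.26 (SE 0.31). Of the 76, 47 lay above and 29 below the median of their length class. Without the 3 shallow libraries 15 of them were lower and 29 higher.

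Genes of SR proteins, CLK kinases and related splicing regulators were higher for 8 of 19 and lower for 2, with a median of 0.53. The lower ones were SON and the hnRNP gene HNRNPH1 (-0.58, adjusted p = 0.0215), whose call was lost without input library 5 or polysome library 3 or 5. SRSF3 measured 200, 243, 181, 245 and 248 CPM in input and 728, 1090, 1040, 818 and 534 CPM in polysome RNA, the fractions being separate (log2 1.91, SE 0.26, adjusted p = 2.12e-07). SRSF1, the founding member, rose by 1.82 (SE 0.18). SON, a speckle protein with a coding sequence of 7278 nucleotides, fell by 2.88 (SE 0.33).

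Histone genes expressed in S phase end in a stem-loop in place of a poly(A) tail, so poly(A) selection keeps only a part of their RNA. They were the low-level group here, with a median input of 0.628 CPM. Of 45, 10 were higher (22.2%, against 16.0% of all genes) and 0 lower (against 23.3%), with a median of 0.99. Of 43 with a coding length, 41 lay above their length class. The linker histone H1-3 measured 0.83, 0.275, 0.334, 0.701 and 0.571 CPM in input and 7.62, 2.73, 3.29, 5.41 and 4.77 CPM in polysome RNA. The rise was seen in every library (log2 3.12, SE 0.59, adjusted p = 4.29e-05). H2BC12, the histone of the list with the highest level, was not called (0.24, adjusted p = 0.363). The count of 10 fell to 5 without input library 1 or polysome library 4 or 5 and to 6 without input library 4, while the median stayed between 0.83 and 1.17 over the fits that left out 1 library.

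**Figure D5:**
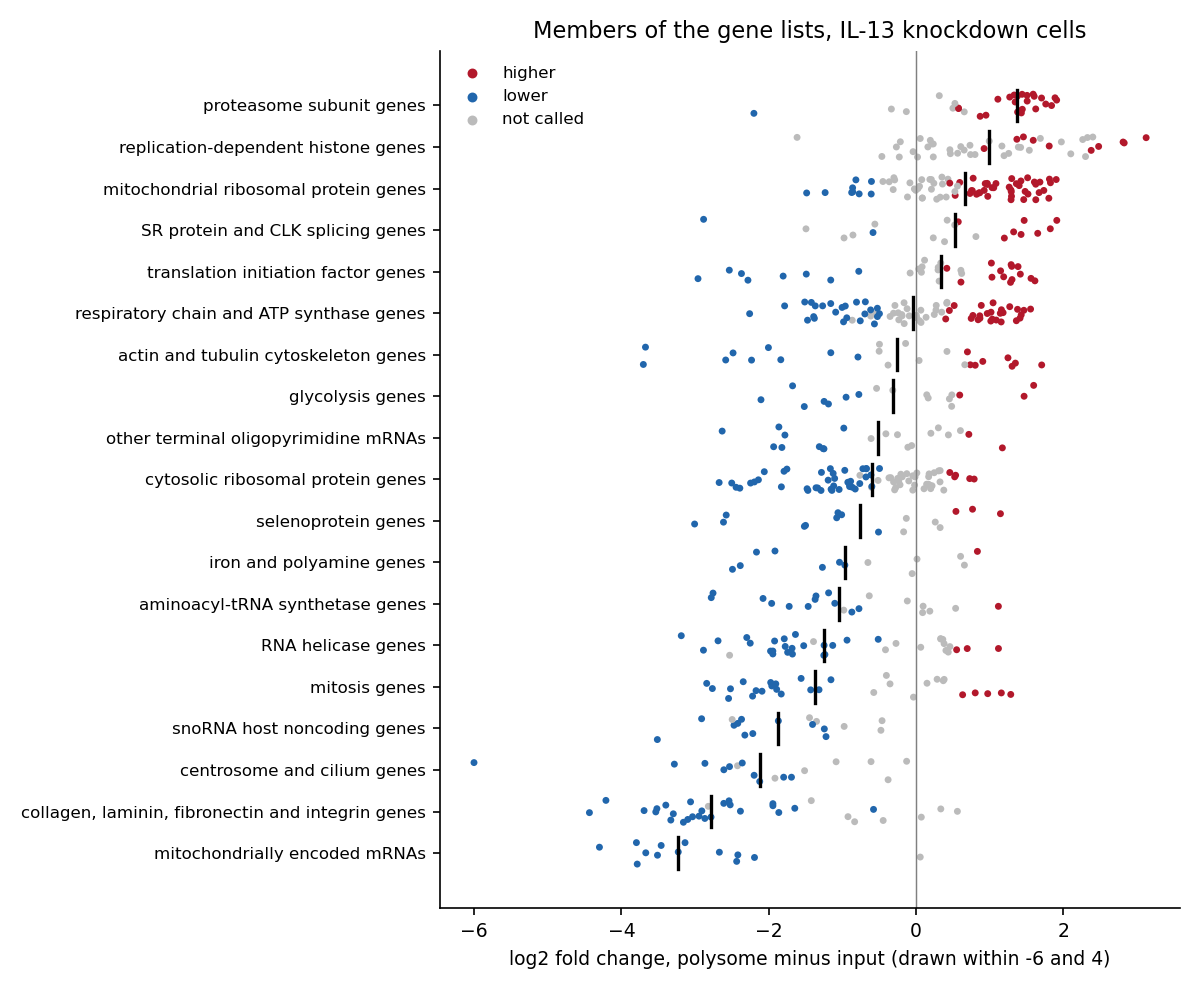
Log2 fold change from input to polysome RNA for each member of 19 gene lists, 1 point per gene, with members called higher in red, lower in blue and others in grey, and a black bar at the list median. Proteasome genes cluster at right around 1.38, mitochondrially encoded mRNAs at left around -3.23, and several lists hold called genes in both directions.

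Genes of the extracellular matrix and its receptors were mostly lower. Collagens, laminins, fibronectin and integrins build and bind the matrix around the cell, and 25 of 33 were lower and 0 higher, with a median of -2.78. They are long (median coding length 4398 nucleotides), but 26 lay below the median of their length class and 6 above it. FN1, fibronectin, measured 365, 491, 582, 448 and 734 CPM in input and 48.9, 65.9, 38.7, 31 and 44.2 CPM in polysome RNA. The gap between the fractions was wide (11.4-fold lower, log2 -3.52, SE 0.37, adjusted p = 9.38e-10). COL1A1, a chain of type I collagen, fell by 2.52 (SE 0.31).

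Of 24 actin and tubulin cytoskeleton genes, 8 were higher and 9 lower, with a median of -0.26. Tropomyosin TPM3 rose by 1.71 (SE 0.21, adjusted p = 1.86e-08). MYH9, the heavy chain of non-muscle myosin, measured 3220, 4050, 2390, 3330 and 3860 CPM in input and 230, 320, 201, 265 and 280 CPM in polysome RNA. The 2 fractions were widely separated (13-fold lower, log2 -3.70, SE 0.27, adjusted p = 2.02e-13). The keratin KRT8 fell by 1.74 (SE 0.23), the only called gene of 10 bronchial markers tested, and 8 of 15 mesenchymal markers were lower with none higher.

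Mitosis genes had a median of -1.37. Of 30, 17 were lower (56.7%, against 23.3% of all genes) and 5 higher (16.7%, near the 16.0% of all genes). Relative to their length classes the median was -0.21, with 12 genes above and 18 below. TOP2A, the topoisomerase that untangles chromosomes, measured 367, 418, 394, 362 and 315 CPM in input and 74.2, 31.9, 91.5, 42.3 and 15.6 CPM in polysome RNA, lowest in library 5 and in all 5 below input (log2 -2.84, SE 0.48, adjusted p = 7.44e-06). The small checkpoint protein MAD2L1 rose by 1.29 (SE 0.26). Of 17 centrosome and cilium genes chosen for long mRNAs, 10 were lower and 0 higher, with a median of -2.12, or -0.05 relative to their length classes. CEP350, which anchors microtubules at the centrosome, measured 7.76, 9.22, 6.42, 10.3 and 7.78 CPM in input and 0 in all 5 polysome libraries. Against a floor of 3 counts per library, 0.343 CPM on average over the group, it was at least 24.2-fold lower.

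Enzymes that act on RNA were mostly lower. RNA helicases, which unwind or remodel RNA, were lower for 22 of 37 and higher for 3, with a median of -1.25 and 25 of 37 below their length class. DHX9 measured 145, 190, 201, 192 and 154 CPM in input and 23.9, 13, 24.8, 17.9 and 16.9 CPM in polysome RNA, clearly apart (9.10-fold lower, log2 -3.19, SE 0.32, adjusted p = 4.8e-10), while DDX41 rose by 1.12 (SE 0.22). The count of higher helicases was 1 without input library 3 or polysome library 2, 5 without polysome library 1 and 8 with an offset for transcript length. Aminoacyl-tRNA synthetases, which charge tRNAs, were lower for 12 of 20 and higher for 1, with a median of -1.04. AARS1 measured 195, 210, 193, 193 and 213 CPM in input and between 26.1 and 32.1 CPM in the polysome libraries (log2 -2.78, SE 0.38, adjusted p = 1.86e-07), and YARS1 was the 1 that rose (1.12, SE 0.32).

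IGF2BP proteins are readers of N6-methyladenosine, the methyl mark on mRNA, so the other proteins of that mark were listed too. Of 17 writers, erasers and readers, 9 were lower and 2 higher (1 without input library 1, 2 or 3 or polysome library 2 or 4), with a median of -0.89, and 15 of the 17 lay below their length class. The writer subunits VIRMA (-2.60, SE 0.36), ZC3H13 (-2.52) and RBM15 (-1.25) and the readers YTHDC2 (-2.62, SE 0.42), YTHDC1 (-1.74) and YTHDF2 (-1.06) were lower. The reader YTHDF1 measured 89.5, 92.1, 88.1, 95.5 and 94.7 CPM in input and 166, 186, 173, 182 and 133 CPM in polysome RNA, higher in all libraries (log2 0.87, SE 0.12, adjusted p = 3.59e-07). The erasers ALKBH5 (-0.08, adjusted p = 0.798) and FTO (0.01, adjusted p = 0.992) were not called.

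Several mRNAs with textbook translational control were lower, ferritin mRNAs far below genes of the same length. Ferritin mRNAs carry an iron-responsive element in the 5′ UTR, to which iron regulatory proteins bind and block initiation. FTH1, the heavy chain, measured 1830, 1870, 1590, 1870 and 1890 CPM in input and 235, 551, 324, 348 and 562 CPM in polysome RNA. FTL, the light chain, measured 1930, 1840, 1440, 1370 and 1540 CPM in input and 169, 415, 173, 210 and 479 CPM in polysome RNA. For both genes libraries 2 and 5 were the highest of the polysome fraction, yet no library overlapped with input (log2 -2.17, SE 0.23 and adjusted p = 1.34e-09 for FTH1, -2.49, SE 0.25 and 3.91e-10 for FTL). Relative to the median of their length class the values were -2.27 for FTH1 and -2.60 for FTL. TFRC, the transferrin receptor, whose mRNA carries such elements in its 3′ UTR, also fell by 1.91 (SE 0.30). Of the polyamine genes OAZ1, which needs a ribosomal frameshift, fell by 1.04 (SE 0.23), SRM by 1.27 and AMD1 by 0.97. SMS rose by 0.83, and ODC1 was not called (0.01, adjusted p = 0.957). In all, 7 of these 13 genes were lower and 1 higher (2 without polysome library 2, 4 or 5), with a median of -0.97.

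Selenoproteins are made by reading a UGA codon as selenocysteine, and the median of their genes was -0.76. Of 16, 9 were lower (56.2%, against 23.3% of all genes) and 3 higher (18.8%, near the 16.0% of all genes). The count of higher genes was 1 without input library 3 or polysome library 2. The glutathione peroxidase GPX4 measured 554, 376, 339, 387 and 214 CPM in input and 56.5, 58.2, 54.7, 66.2 and 70.6 CPM in polysome RNA. Its polysome level was steady and under every input library (log2 -2.61, SE 0.29, adjusted p = 3.14e-09). GPX1 fell by 2.58 (SE 0.42) and SELENOW by 3.01 (SE 0.38), while SELENOS, a membrane protein of the endoplasmic reticulum, rose by 1.15 (SE 0.26).

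Genes whose mRNAs carry upstream reading frames of the integrated stress response were lower for 6 of 12 and higher for 1, with a median of -0.75. Relative to their length classes the median was -0.20, with 3 genes above and 9 below. Without polysome library 5 the list median was -0.60 with 5 lower. Without the 3 libraries under 5000000 counts it was -0.42 with 4 lower. ATF4, the transcription factor of that response, measured 317, 287, 226, 298 and 249 CPM in input and 87.7, 121, 100, 97 and 83.6 CPM in polysome RNA. The fractions did not approach each other (log2 -1.49, SE 0.19, adjusted p = 3.74e-08). EPRS1 fell by 2.75 (SE 0.36) and ATF5 by 0.78. PPP1R15B was higher (0.58, adjusted p = 0.043), and of the fits that left out 1 library it passed only without input library 3 or polysome library 5. Of 17 target genes of ATF4, 2 were higher (11.8%, against 16.0% of all genes) and 3 lower (17.6%, against 23.3%). Their median of -0.12 turned positive in some settings. The count of lower targets was 1 without input library 2 or 5 and without polysome library 1, 3 or 4. DDIT4, an inhibitor of mTOR, rose from between 17.3 and 37.8 CPM to between 47.9 and 127 CPM (log2 1.52, SE 0.33, adjusted p = 0.00026), and MTHFD2 of mitochondrial folate metabolism by 1.41 (SE 0.32). Serine synthesis enzyme PHGDH fell by 1.28 (SE 0.35).

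Of 17 glycolysis genes, 3 were higher (17.6%, against 16.0% of all genes) and 7 lower (41.2%, against 23.3%), with a median of -0.31. Triose phosphate isomerase TPI1 measured 1740, 1260, 894, 1170 and 1300 CPM in input and 3650, 3900, 3190, 3980 and 2870 CPM in polysome RNA. Pyruvate kinase PKM measured 3220, 2850, 1850, 2310 and 2890 CPM in input and 880, 1060, 653, 985 and 1020 CPM in polysome RNA. The libraries of the fractions were separate for both, in opposite directions (log2 1.47, SE 0.20 and adjusted p = 1.9e-07 for TPI1, -1.52, SE 0.20 and 1.56e-07 for PKM). HK2 fell by 2.10, and GAPDH was not called (0.17, adjusted p = 0.648). With only the 10 libraries fitted, 6 glycolysis genes were higher.

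Of 16 chaperones of the endoplasmic reticulum, 2 were higher (12.5%) and 5 lower (31.2%), shares near those of all genes. HSPA5, the BiP chaperone, fell from between 302 and 686 CPM to between 59.7 and 142 CPM (log2 -2.32, SE 0.28, adjusted p = 1.63e-08), HSP90B1 fell by 2.58 (SE 0.28), and the co-chaperone DNAJB11 rose by 1.70 (SE 0.32). In cholesterol and fatty acid synthesis, 7 of 26 genes were higher (26.9%, against 16.0% of all genes) and 10 lower (38.5%, against 23.3%). IDI1, an isomerase of the sterol pathway, rose by 1.23 (SE 0.29), while fatty acid synthase FASN, with a coding sequence of 7533 nucleotides, measured 1080, 1340, 668, 743 and 1120 CPM in input and 71.9, 78.8, 48, 61.7 and 84.5 CPM in polysome RNA, far apart in every library (log2 -3.85, SE 0.31, adjusted p = 2.2e-12). The count of higher genes in that list was 3 without input library 4 and 4 without input library 1 or polysome library 2, and the medians of the chaperone and lipid lists changed sign between settings. Immediate early genes were mostly uncalled. Of 27, 2 were lower (7.41%, against 23.3% of all genes), JUND among them (-1.25, SE 0.26), and 0 higher (against 16.0%).

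The receptor and signalling genes of IL-13 were next. Of 17 tested, 7 were lower (41.2%, against 23.3% of all genes) and 0 higher (against 16.0%), with a median of -0.69. Relative to their length classes the median was -0.03, with 8 genes above and 9 below. The receptor chains IL4R (0.01, adjusted p = 0.984) and IL13RA1 (0.18, adjusted p = 0.631) were not called. The kinase JAK1 measured 129, 152, 168, 171 and 122 CPM in input and 33, 12.6, 23.7, 24.9 and 18.2 CPM in polysome RNA, wholly below input (log2 -2.71, SE 0.38, adjusted p = 2.71e-07). STAT6, the main transcription factor of the pathway, measured 133, 115, 80.9, 107 and 93.7 CPM in input and 47.1, 76.3, 47.3, 70.7 and 88.4 CPM in polysome RNA. The highest polysome library exceeded the lowest input library, and the fall was modest (log2 -0.69, SE 0.22, adjusted p = 0.0111). STAT3 fell by 1.76 (SE 0.20).

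Genes known to be induced by IL-13 in airway cells were detected for 17 of 34. Of the 17, 3 were higher (17.6%, against 16.0% of all genes) and 1 lower (5.88%, against 23.3%). The feedback inhibitors of the pathway differed. CISH measured 28.5, 26.7, 29, 33.5 and 24 CPM in input and 41.1, 55.9, 44.3, 51.7 and 58.9 CPM in polysome RNA. SOCS1 measured 12, 8.12, 7.82, 10.4 and 9.27 CPM in input and 2.48, 3.6, 2.81, 4.51 and 0.867 CPM in polysome RNA. Neither gene overlapped between fractions, CISH being higher (log2 0.83, SE 0.22, adjusted p = 0.00293) and SOCS1 lower (-1.67, SE 0.38, adjusted p = 0.000513). The ubiquitin ligase RNF19B rose by 0.93 (SE 0.17). The eosinophil chemokine CCL26 measured 15, 14.8, 12.6, 16.1 and 13.3 CPM in input and 6.19, 9.65, 9.11, 11.3 and 1.73 CPM in polysome RNA. All 5 were below input, but its spread was too wide for a call (log2 -0.87, SE 0.51, adjusted p = 0.178). Transglutaminase TGM2 ranged from 22.6 to 239 CPM in input alone and was not called (-1.52, SE 0.93, adjusted p = 0.202).

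IGF2BP3 mRNA, the hairpin's target, measured 17.7, 26.8, 35.1, 23.8 and 25.8 CPM in input and 14.7, 7, 12.7, 8.69 and 2.6 CPM in polysome RNA. All polysome libraries were below all input libraries (2.71-fold lower, log2 -1.44, SE 0.38, adjusted p = 0.0021). IGF2BP1, its low-level paralog, fell by 1.33 (SE 0.43, adjusted p = 0.0118), whereas IGF2BP2 was at 73.8, 103, 99, 83.9 and 90.1 CPM in input and 127, 75.2, 137, 79.8 and 55.9 CPM in polysome RNA, with full overlap (0.08, SE 0.25, adjusted p = 0.829). Of 18 genes of the family and its known targets, 3 were higher (16.7%) and 4 lower (22.2%), shares near the 16.0% and 23.3% of all genes. The list median of -0.06 changed sign between settings. Thymidine kinase TK1 rose from between 544 and 912 CPM to between 1800 and 2460 CPM (log2 1.66, SE 0.19, adjusted p = 3.78e-09), and cyclin CCND3 by 0.96. The proliferation marker MKI67 fell by 2.76 (SE 0.43). MYC (-0.40, adjusted p = 0.485), CD44 (-0.15, adjusted p = 0.782) and CCND1 (0.87, adjusted p = 0.312) were not called. IGF2, 1 of the 4 lower, was at 0 in every polysome library. Its input mean of 0.275 CPM lies under what 3 counts per library are worth in the polysome group (0.343 CPM), so no fold is given. With IGF2 set to no change the list median was 0.01.

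Loading was then compared with that of the control line under IL-13 and of the same knockdown line without IL-13, neither of which shares a library with these cells. In the control line 6583 genes (39.3%) and in the unstimulated knockdown line 6436 genes (38.5%) were called between fractions. Of the 2677 genes higher here, 2418 (90.3%) were also higher in the IL-13 control cells, 86.4% of the higher genes there. Of the 3905 lower here, 3140 (80.4%) were also lower there, 83.0% of theirs. The figures for the unstimulated knockdown cells were 2418 (90.3%, and 87.9% of theirs) and 3172 (81.2%, and 86.1%). Across 8992 genes of at least 10 CPM in input the fold changes had a Pearson r of 0.944 with the IL-13 control cells and 0.975 with the unstimulated knockdown cells, a description over genes that share length and composition.

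Medians of several lists follow for the 3 kinds of cells. Histone genes had 0.99 here, -1.04 in IL-13 control cells and 0.37 in unstimulated knockdown cells, the widest range of the 33 lists, and none of its genes was called as different. Proteasome genes had medians of 1.38 here, 1.43 in IL-13 control cells and 1.35 in unstimulated knockdown cells, matrix genes -2.78, -2.79 and -2.64, and mitochondrially encoded mRNAs -3.23, -3.16 and -3.27. Cytosolic ribosomal protein genes had -0.60, -0.38 and -0.41. Of the 79, 6 had a higher value here than in IL-13 control cells, against 7538 of all 16735 genes, and none was called as different. Respiratory chain and ATP synthase genes leaned the same way, with 12 of 76 higher here. So did short coding genes. Their median differences from IL-13 control cells were -0.27 up to 300 nucleotides, -0.17 from 301 to 450 and -0.14 from 451 to 600. IGF2BP3 itself changed by -1.44 here, -1.74 in IL-13 control cells and -1.24 in unstimulated knockdown cells. ATF4 had -1.49, -1.31 and -1.47, and FTH1 -2.17, -2.42 and -1.91.

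A test of the difference in loading, as an interaction term in the same model, called 1 gene (0.00598%) between IL-13 knockdown and IL-13 control cells and 0 (0.0%) between IL-13 and unstimulated knockdown cells. Before adjustment, 300 and 219 genes had a p under 0.05, and the Wald test of DESeq2 called 10 and 5. A p that misses the threshold does not show equal loading. The called gene was TNS1, a tensin that ties integrins to actin. Its polysome level in the IL-13 knockdown cells was 4.05, 4.55, 0.965, 2.38 and 4.33 CPM, and it was at 0 in all 5 polysome libraries of IL-13 control cells. In input it ranged from 3.73 to 21.3 CPM in the IL-13 knockdown cells and from 7.57 to 19.9 CPM in the control cells, ranges that overlap. Polysome RNA was thus 4.24-fold lower than input in the knockdown cells. Against a floor of 3 counts per library (0.194 CPM on average), it was at least 63.3-fold lower in the control cells. That is at least a 14.9-fold difference in loading, a bound that was not itself tested. The adjusted p of the interaction test, 0.00786, belongs to the fitted difference. The next lowest adjusted p was 0.748. Unstimulated cells of both lines held TNS1 in 4 of 5 polysome libraries each and at 0 in the other. The call was absent from the fits with limma voom, from both fits with a replicate block and from the fit without polysome replicate 4 of the control cells.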

How the data were processed

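RNA was sequenced from input and polysome fractions after TRIzol LS extraction, DNase digestion and poly(A) selection in stranded paired-end libraries, per the labels' protocols. The deposited table gave an estimated count per gene and library, with no scaling, per the file headers. The deposited table also gave TPM, in which the authors took account of length and depth. Those of the 10 libraries summed to between 82.3% and 85.3% of the full scale, so part of the genes is not analysed here. MultiQC, Trimmomatic, Salmon and DESeq2 are named, with no versions, in the submitters' processing notes. The genome build, the annotation and the strand setting are not given in the sources used here. Column names write si where the growth protocol speaks of hairpin lines; the latter is used.

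The design assumed counts, and the estimated counts were rounded to whole numbers. filterByExpr kept 16735 genes, which held 99.94% or more of each library's total. One mean per group was fitted over all 40 libraries with TMM scaling and the quasi-likelihood test of edgeR 4.0.16 in R 4.3.3, with 32 residual degrees of freedom. P-values were two-sided, with Benjamini-Hochberg adjustment across the 16735 genes, and a gene was called under 0.05. An SE is the absolute log2 change divided by the square root of the test's F. CPM used the scaled library sizes. Levels of IGF2BP3 were compared by exact permutation of log2(CPM + 1). Coding and UTR lengths came from the principal transcript in GENCODE release 29, whose IDs without version matched 96.0% of these genes; it supplied no position. The fit was tested on simulated data, and in 20 pairs of replicate libraries every pair differed by more than sampling noise.

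Genes were named by a rule. IGF2BP1, IGF2BP2, IGF2BP3, MALAT1 and NEAT1 were always eligible. So were the 8 protein-coding genes called higher and the 8 called lower with the largest log2 change, among those with a mean of at least 10 CPM in the higher fraction and no overlap of libraries, and the 5 protein-coding genes of each direction with the highest mean in input. In each of 33 lists the rule took the called members with the largest rise and fall and the member with the highest input mean, and any member of a list with at most 20 tested. For differences of loading it took every called gene, at most 5. A gene withheld for evaluation is not reported here. RPS12 and RPL39 fall outside the rule and were named after their values were seen. The comparison, the members and the lists were chosen with earlier results of these data known. Alternatives were other size factors, DESeq2 1.42.0, limma 3.58.1 voom with a weight per fraction, no filter, only the libraries compared, replicate blocks, an offset for effective length from counts and TPM, leaving out each library, leaving out the 3 libraries under 5000000 counts, 0.1 CPM in place of 1 as pseudocount, a minimum of 10 CPM and, chosen after seeing the data, the longest coding part of a gene.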

Additional observations from a re-analysis of the deposited data

Results flagged for a closer look

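The difference of loading of TNS1, which encodes the focal adhesion protein tensin, between IL-13 knockdown and IL-13 control cells passed the test of the difference itself, with a fitted log2 value of 9.06 (SE 1.46, edgeR adjusted p = 0.00786). That value depends on the prior count, since the control polysome libraries were at 0, and it is no bound. Measured against a floor of 3 counts, the fall in polysome RNA was at least 63.3-fold in the control cells and 4.24-fold in the knockdown cells.

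Polysome library 5 held 2302952 counts, far from the other 4 of its group.

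Dixon's criterion for a library that stands apart, which chance meets in about 1 in 20 groups, was met by 19 of 260 values tested, where chance gives 13. Of 18 gene levels among them, 7 were in input library 3. There ATF5 measured 19.9 CPM against 30.0 to 31.6 in the others, FTH1 1590 against 1830 to 1890, RPL24 527 against 649 to 690, and SMS 135 against 176 to 191. TPM3 measured 295 CPM there against 397 to 424 and YARS1 94.4 against 125 to 134, while EPRS1 was higher, at 60.8 against 50.5 to 53.4.

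In input library 1, AHNAK2 measured 19.1 CPM against 30.8 to 33.9 and RPL39 786 against 465 to 548. In input library 2, PSMD1 measured 128 CPM against 103 to 110. In input library 5, IL4R measured 33.7 CPM against 22.0 to 23.9 and SELENOS 51.6 against 34.7 to 39.2.

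In polysome library 2, PRDX1 measured 3310 CPM against 1710 to 2170, SAP30 76.3 against 50.6 to 56.5 and UQCR11 19.4 against 10.3 to 12.2. NBAS measured 2.18 CPM in polysome library 1, from 58 counts, and 0 in the others. TGM2 measured 87.3 CPM in polysome library 4 against 7.43 to 28.6, and EIF4H 1020 in polysome library 5 against 1290 to 1380.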

How the results depend on the processing

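The comparison of polysome with input gave between 6029 and 6321 calls over the fits that left out 1 library and between 5915 and 7252 over the other settings, against 6582, with 40.7% of the calls higher, which became 50.8% without the 3 libraries under 5000000 counts. The median for coding lengths over 6000 nucleotides stayed between -2.50 and -1.98. The median for 601 to 1200 nucleotides was 0.53, and it moved by more than the spread between libraries to 0.69 with an offset for effective length, 0.71 with only the libraries compared, 0.68 with only those libraries and a replicate block, 0.70 without the 3 libraries under 5000000 counts and 0.70 over genes of at least 10 CPM, each time upward. The cause was not tested.

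The difference of loading from IL-13 control cells, 1 call, gave 10 calls with the Wald test of DESeq2, 0 with limma voom, 0 with either replicate block and between 0 and 1 over the fits that left out 1 library, the 0 being without polysome replicate 4 of the control cells. The difference from unstimulated knockdown cells, 0 calls, gave 5 with the Wald test. The level of IGF2BP3 in input could not pass with the numbers as a replicate block (log2 difference -0.45, exact sign-flip p = 0.0625, the smallest that 5 pairs allow), and its difference lay between -0.57 and -0.33 over the fits that left out 1 library. In polysome RNA it lay between -0.5447 and 0.05423, turning positive (exact permutation p = 0.889) without polysome replicate 5 of the knockdown cells.

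The call for the input level was lost without any of input replicates 1, 2, 4 and 5 of the knockdown cells or 1, 2 and 3 of the control cells (exact permutation p up to 0.103).

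Input and polysome libraries were not treated as pairs, since the correlations of deviations for the same number were -0.198, 0.0151, 0.118, 0.294 and 0.156 over 9031 genes, above 0.1 for 3 of 5. Replicates 4 and 5 correlated best with their own number, and the other 3 did not. With the culture as a replicate block over all libraries 6333 genes were called, 39.3% of them higher, and with a block over the 10 libraries 6255, 48.5% of them higher.

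Of 1290 values of the 129 genes named in the text over the fits that left out 1 library, 1274 kept direction and side of the threshold, 16 lost the call (5 for HLA-B, 8 for PPP1R15B and 3 for HNRNPH1) and 0 turned. Of 1156 values under the other settings, 1145 kept both, 10 lost the call, 1 gained it and 0 turned. IGF2 and MEG3 lost it with limma voom, MEG3 and HLA-B with the culture block, IGF2BP1 and STAT6 with the length offset PPP1R15B with no filter, and HNRNPH1 with the length offset, with the block over the 10 libraries and without the 3 libraries under 5000000 counts. The 2302952 counts of polysome library 5 limit what can be seen there, since 1 count is 0.433 CPM. A gene at 0 in it is not shown to be absent.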

Other observations

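The summed level of replication-dependent histone genes, which package newly made DNA, was 142, 125, 139, 142 and 114 CPM in input and 247, 172, 222, 293 and 269 CPM in polysome RNA of the knockdown cells. In the IL-13 control cells it was 453, 122, 259, 115 and 203 CPM in input and 252, 277, 353, 234 and 263 CPM in polysome RNA. Control input libraries 1, 3 and 5 lay above every knockdown input library, and the spread of the 2 lines was not compared by a test. The median log2 change from input to polysome was 0.99 in the knockdown cells, -1.04 in the IL-13 control cells and 0.37 in the unstimulated knockdown cells. The difference from the control cells was at an unadjusted p under 0.05 for 19 of 45 histone genes, against 300 of all 16735 genes, and none passed after edgeR's adjustment. Histone genes are near-identical copies of each other, and how reads were divided among them is uncertain.

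A single gene was called in opposite directions in the 2 IL-13 comparisons, the unnamed gene ENSG00000283907. It measured 125, 30.1, 23.8, 44.2 and 80.8 CPM in input and 117, 135, 70.7, 311 and 358 CPM in polysome RNA of the IL-13 knockdown cells (log2 1.70, adjusted p = 0.0363). In the IL-13 control cells it measured 1700, 38, 347, 56.6 and 279 CPM in input and 170, 162, 147, 169 and 110 CPM in polysome RNA (log2 -1.68, adjusted p = 0.0387). Its highest input values came from the same 3 control libraries, 1, 3 and 5, as the highest histone sums. The gene's difference between the 2 comparisons did not pass, and it was picked after its values were seen.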
